A study of Mus musculus with 17 samples.

Results

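The genes described are 10 of the core circadian clock: Arntl (also called Bmal1), Clock, Per1, Per2, Cry1, Bhlhe40, Nr1d1, Nr1d2, Dbp and Tef. They were taken by symbol from a table of 25198 genes, and all 10 were found in it. Expression had been measured by RNA-seq in 17 libraries of CD1 mouse ovarian follicles kept in eIVFG, a culture system in which single follicles grow inside a gel. The mice were 16 days old, the follicles had grown for 8 days to the antral stage, and each library held 3 follicles. The 6 Tyrphostin libraries came from follicles given hCG, the gonadotropin used to trigger ovulation, for 4 h together with 10 µM Tyrphostin-AG1478 in DMSO. Tyrphostin-AG1478 is an inhibitor of the EGF receptor kinase. The labels call the other 11 libraries Control and attach the same treatment text to all samples, so whether Control follicles received hCG or DMSO is not given in the sources used here. The labels name no genetic alteration. Batch 1 held 6 Control and 3 Tyrphostin libraries and batch 2 held 5 Control and 3 Tyrphostin libraries. The labels do not say that libraries came from separate animals or cultures, so p-values measure only the spread between these libraries. The hour of the day at collection is not given in the sources used here.

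The clock is a feedback loop of transcription factors that runs in most mammalian cells. ARNTL and CLOCK pair on E-box elements and switch on the Per and Cry genes, whose proteins then return to the nucleus and block the pair. A second arm consists of the nuclear receptors NR1D1 and NR1D2 (REV-ERB alpha and beta), which are switched on by the same pair and repress Arntl through ROR elements. DBP and TEF are output factors that bind D-box elements. Per1 is also known as an immediate response gene that hormones acting through cyclic AMP induce by way of CRE elements, and granulosa cells of the ovary are known to hold a working clock.

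Promoter sequence is shown for Per1 and Nr1d2, the 2 members that differed between Tyrphostin and Control libraries. The windows are the RefSeq sequence before each start site in build GRCm38.p6, cut back where they met an annotated exon of GENCODE M21. Capitals mark matches, on either strand, to 4 short elements. These were the E-box, spelled CACGTG, and the D-box, spelled TTATGNAA. The others were the ROR half-site, spelled AGGTCA, and the CRE half-site, spelled TGACG. The full CRE, spelled TGACGTCA and containing the half-site, was searched as well. The first Per1 window is chr11:69098699-69098947 and the second chr11:69099902-69100151, both on the plus strand, inside the annotated gene and outside its exons. The Nr1d2 window is chr14:18239128-18239356 on the minus strand, directly before the annotated gene.
Per1, first start site: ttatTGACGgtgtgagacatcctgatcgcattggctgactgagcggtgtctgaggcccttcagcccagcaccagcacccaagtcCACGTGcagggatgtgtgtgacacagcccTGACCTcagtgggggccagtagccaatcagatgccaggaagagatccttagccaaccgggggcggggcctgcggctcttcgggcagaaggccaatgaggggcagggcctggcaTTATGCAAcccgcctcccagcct
Per1, second start site: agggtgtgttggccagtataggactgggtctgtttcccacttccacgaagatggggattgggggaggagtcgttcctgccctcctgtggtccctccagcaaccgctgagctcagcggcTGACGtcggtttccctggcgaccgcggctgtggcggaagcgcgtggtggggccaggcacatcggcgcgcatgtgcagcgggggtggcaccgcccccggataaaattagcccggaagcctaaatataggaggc
Nr1d2: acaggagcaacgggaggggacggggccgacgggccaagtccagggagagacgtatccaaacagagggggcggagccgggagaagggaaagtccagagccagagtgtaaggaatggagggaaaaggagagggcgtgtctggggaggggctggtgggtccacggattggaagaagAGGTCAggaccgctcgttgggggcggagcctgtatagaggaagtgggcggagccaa

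The first Per1 window held a match to each of the 4 short elements. The CRE half-site lay 246 to 242 bases before the start, the E-box 166 to 161, the ROR half-site 137 to 132 and the D-box 24 to 17. The second Per1 window held a CRE half-site 132 to 128 bases before the start. The Nr1d2 window held a ROR half-site 77 to 72 bases before the start. These positions are counted from the RefSeq start. They include the exon bases cut from the printed windows, 1 for the first Per1 window and 21 for Nr1d2. Over the 8 members found in the promoter table (Per2 and Bhlhe40 were not matched), 3 held an E-box in 250 bases (Per1, Cry1 and Tef), 1 a D-box (Per1), 3 a ROR half-site (Per1, Clock and Nr1d2), 2 a CRE half-site (Per1 and Cry1) and 0 a full CRE. These members have 13 promoters in the table, of which 4 held an E-box, 1 a D-box, 3 a ROR half-site, 3 a CRE half-site and 0 a full CRE. Among all 32851 promoters of the table the shares were 6.02% for the E-box, 3.07% for the D-box, 14% for the ROR half-site, 17.8% for the CRE half-site and 1.55% for the full CRE. Counted by gene, with a match in any of its promoters, the shares over 27025 genes were 6.86%, 3.63%, 15.8%, 19.8% and 1.77% in the same order. Such a match is a description of the letters and does not show that a factor binds.

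Total counts per library ran from 1820545 to 8291024, with a median of 4208470 in Control and 5675597 in Tyrphostin libraries. A count of 3 corresponded to between 0.334 and 1.63 CPM, the unit in which counts are scaled to a common library total (here with TMM factors). Of the granulosa cell markers, Inha and Inhba, which encode inhibin subunits, were at 17494 CPM or more in every library. Foxl2, a defining granulosa transcription factor, was at no more than 4.64 CPM and had no count in 3 libraries. Oocyte markers summed to between 13.4 and 204 CPM, and markers of immune and endothelial cells to between 7.80 and 84.9 CPM.

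Levels per length were compared first, as CPM per kilobase of annotated exon. In Control libraries the order by median was Bhlhe40 at 32.1, Cry1 at 19.4, Per1 at 10.1, Arntl at 4.42, Nr1d2 at 3.58, Clock at 1.70 and Nr1d1 at 0.833 CPM per kilobase. Tef at 0.178, Dbp at 0.0995 and Per2 at 0.0977 followed. The loop repressors Bhlhe40, Cry1 and Per1 thus stood above the activators, while Per2 and both D-box factors were near the detection floor. Of the 9 neighbouring pairs in this order, only Per1 and Arntl had ranges that did not overlap over the 11 Control libraries. Nr1d2 was above Clock in 11 of 11 Control libraries although their ranges overlapped, while Bhlhe40 was above Cry1 in 8, Tef above Dbp in 6 and Dbp above Per2 in 5. The order of Nr1d2 and Clock rests on length, taken over all annotated exons merged (5409 and 13727 bases). In CPM the Control median was 19.4 for Nr1d2 and 23.4 for Clock. In Tyrphostin libraries Nr1d2, at 5.16 CPM per kilobase, was listed ahead of Per1, at 4.71, and was the higher of the pair in 4 of 6 libraries. The ranges of Cry1 and Nr1d2, and those of Arntl and Clock, did not overlap there.

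**Figure D1:**
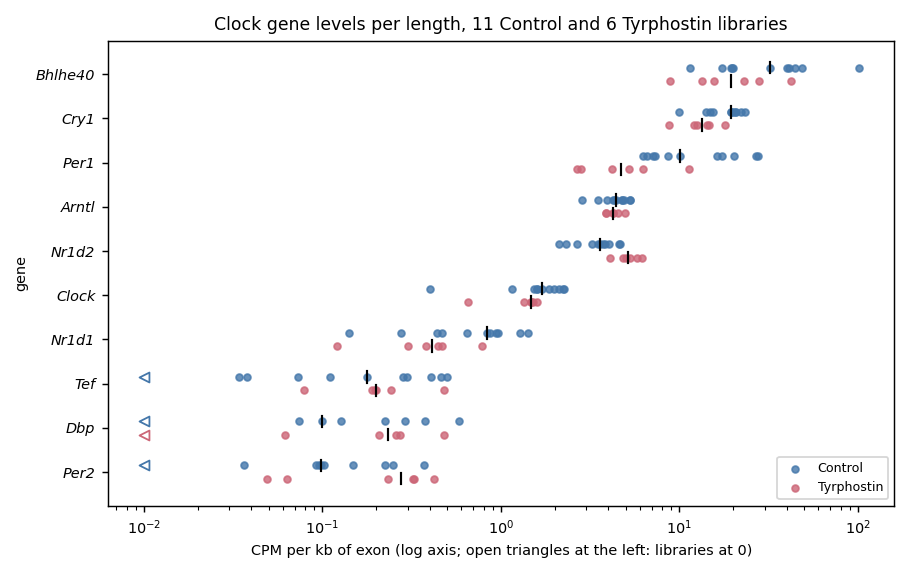
Level of each of the 10 clock genes in CPM per kilobase of exon (log axis), with 1 point per library for 11 Control (blue) and 6 Tyrphostin (red) libraries, a bar at each group's median and open triangles for libraries at 0. Bhlhe40, Cry1 and Per1 lie highest in Control libraries, and Tef, Dbp and Per2 lie lowest.

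The treatment comparison asked whether clock transcripts differed between inhibitor-exposed and Control follicles. In a fit that included batch, 7 of the 10 genes had enough counts to be tested. Per1 was lower and Nr1d2 higher in Tyrphostin libraries, and the other 5 genes did not pass an adjusted p of 0.05 in edgeR's quasi-likelihood test. These 2 of 7 stand beside 10.6% of all 9603 genes tested, of which 4.35% were higher and 6.25% lower. Of the 7 log2 differences 1 was positive and 6 were negative, with a median of -0.40 against 0.00 for all genes tested.

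Neither activator passed the test. Arntl, the partner of CLOCK, ranged from 21.5 to 39.9 CPM with a median of 33.2 in Control libraries and from 29.0 to 37.4 with a median of 32.0 in Tyrphostin libraries. The Tyrphostin range lay wholly inside the Control range. The log2 difference was -0.03 (95% interval -0.33 to 0.27; edgeR adjusted p = 0.932). Clock ranged from 5.49 to 31.0 CPM (median 23.4) in Control and from 8.92 to 21.9 CPM (median 20.2) in Tyrphostin libraries. Its log2 difference was -0.31 (95% interval -0.82 to 0.21; edgeR adjusted p = 0.504). The lowest Clock values were those of Control 7 and Tyrphostin 6, both of batch 2.

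Per1, on chromosome 11 from 69095217 to 69109960 in GRCm38, encodes a repressor of the ARNTL and CLOCK pair. In batch 1 the Control libraries ran from 48.6 to 155 CPM with a median of 105, and the Tyrphostin libraries were at 29.5, 35.0 and 63.5 CPM. In batch 2 the Control libraries were at 35.0, 41.0, 56.7, 36.8 and 40.0 CPM, and the Tyrphostin libraries at 15.8, 23.6 and 15.1 CPM. All 3 Tyrphostin libraries of batch 2 and 2 of 3 in batch 1 were below every Control library of their batch. Taking both batches together, 5 of 6 Tyrphostin libraries were below all 11 Control libraries. The Control mean was 78.7 CPM ± 45.5 (SD, n = 11), and the Tyrphostin mean was lower at 30.4 CPM ± 17.95 (SD, n = 6). With batch as a term the log2 difference was -1.29 ± 0.23 (SE; 95% interval -1.76 to -0.82; edgeR adjusted p = 0.000542), a level 2.44-fold lower. It passed the threshold in all 9 alternative settings tried and with each of the 17 libraries left out. In these bulk samples, fewer cells of a type and less RNA per cell cannot be told apart.

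Nr1d2, on chromosome 14 from 18204054 to 18239127 in GRCm38, encodes the nuclear receptor REV-ERB beta. In batch 1 the Control libraries ran from 12.5 to 21.7 CPM with a median of 18.4, and the Tyrphostin libraries were at 28.6, 22.1 and 27.2 CPM. In batch 2 the Control libraries were at 11.5, 19.0, 25.1, 20.2 and 24.9 CPM, and the Tyrphostin libraries at 31.3, 33.5 and 26.0 CPM. Within each batch all 3 Tyrphostin libraries were above every Control library, and 5 of 6 were above all 11. The share of all genes separated within a batch was not counted, here or for the other genes described. Full separation over both batches, which neither Per1 nor Nr1d2 reached, was seen in 0.51% of 9603 genes with Tyrphostin above and 1% with Tyrphostin below. The Control mean was 18.8 CPM ± 4.53 (SD, n = 11), and the Tyrphostin mean was higher at 28.1 CPM ± 4.01 (SD, n = 6). The log2 difference was 0.57 ± 0.17 (SE; 95% interval 0.22 to 0.91; edgeR adjusted p = 0.0303), a level 1.48-fold higher. This call was close to the threshold. It was lost without the batch term (edgeR adjusted p = 0.0512), without the count filter (0.0557) and with Control counts summed by the 5 sets that the library names give (0.0800). It was also lost when Control 4, Control 8, Tyrphostin 1, Tyrphostin 3, Tyrphostin 4 or Tyrphostin 5 was left out, with adjusted p-values of 0.0512 to 0.0798 (edgeR).

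Nr1d1 encodes REV-ERB alpha, the close relative of the Nr1d2 product. It was counted with only 1 to 23 reads per library, ranging from 0.433 to 4.36 CPM (median 2.56) in Control and from 0.372 to 2.41 CPM (median 1.27) in Tyrphostin libraries. Its log2 difference was -0.85 (95% interval -1.72 to 0.01; edgeR adjusted p = 0.220). The Nr1d1 and Nr1d2 estimates thus had opposite signs, but the Nr1d1 one did not pass the test. Over both batches Nr1d1 met the count filter mainly by Control libraries, the group where it was higher. The Nr1d1 estimate and its sign are therefore no separate support. Nr1d1 shares 263 bases of exon, 8.55% of its exonic length, with Thra on the opposite strand. The library protocol does not mark strand, so reads from that stretch cannot be assigned to 1 of the pair.

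Cry1, a partner of the PER proteins in repression, ranged from 33.2 to 77.7 CPM (median 64.8) in Control and from 29.2 to 60.2 CPM (median 44.8) in Tyrphostin libraries. In batch 1 all 3 Tyrphostin libraries, at 60.2, 47.8 and 41.7 CPM, were below the lowest Control library at 64.8 CPM. In batch 2 the groups overlapped, with 1 of 3 below the lowest Control library. The log2 difference was -0.40 ± 0.15 (SE; 95% interval -0.72 to -0.08) with an edgeR adjusted p of 0.103, and of 0.0488 when Control 10 was left out. Bhlhe40, also called Dec1, encodes a repressor that competes at E-boxes. It spread over 54.1 to 474 CPM (median 151) in Control and 41.7 to 199 CPM (median 90.9) in Tyrphostin libraries. The difference of -0.79 on the log2 scale (95% interval -1.62 to 0.03; edgeR adjusted p = 0.230) was within that spread.

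Per2, Dbp and Tef were too low to pass the count filter over both batches. Per2, the paralogue of Per1, was counted with 0 to 16 reads per library and had none in 2 Control libraries. Control libraries averaged 0.753 CPM ± 0.664 (SD, n = 11), and Tyrphostin libraries averaged 1.38 CPM ± 0.888 (SD, n = 6). Without the filter its log2 difference was 0.98 (edgeR adjusted p = 0.409), a sign opposite to that of Per1 but not past the test. Dbp had 0 to 10 reads and none in 4 Control libraries and 1 Tyrphostin library, and Tef had 0 to 21 reads and none in 1 Control library. Their unfiltered log2 differences were 0.44 (edgeR adjusted p = 0.819) for Dbp and 0.10 (edgeR adjusted p = 0.957) for Tef. The standard errors of these log2 differences were 0.58 for Per2, 0.73 for Dbp and 0.45 for Tef, so at this depth a change was not detectable unless it was large. Dbp shares 18% of its exonic length with Sphk2 on the opposite strand, so reads from that stretch cannot be assigned to 1 of the pair. Whether such reads were counted or dropped is not given in the sources used here. Smaller shares of Bhlhe40 (2.51%), Tef (2.45%) and Arntl (0.439%) overlap antisense genes.

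**Figure D2:**
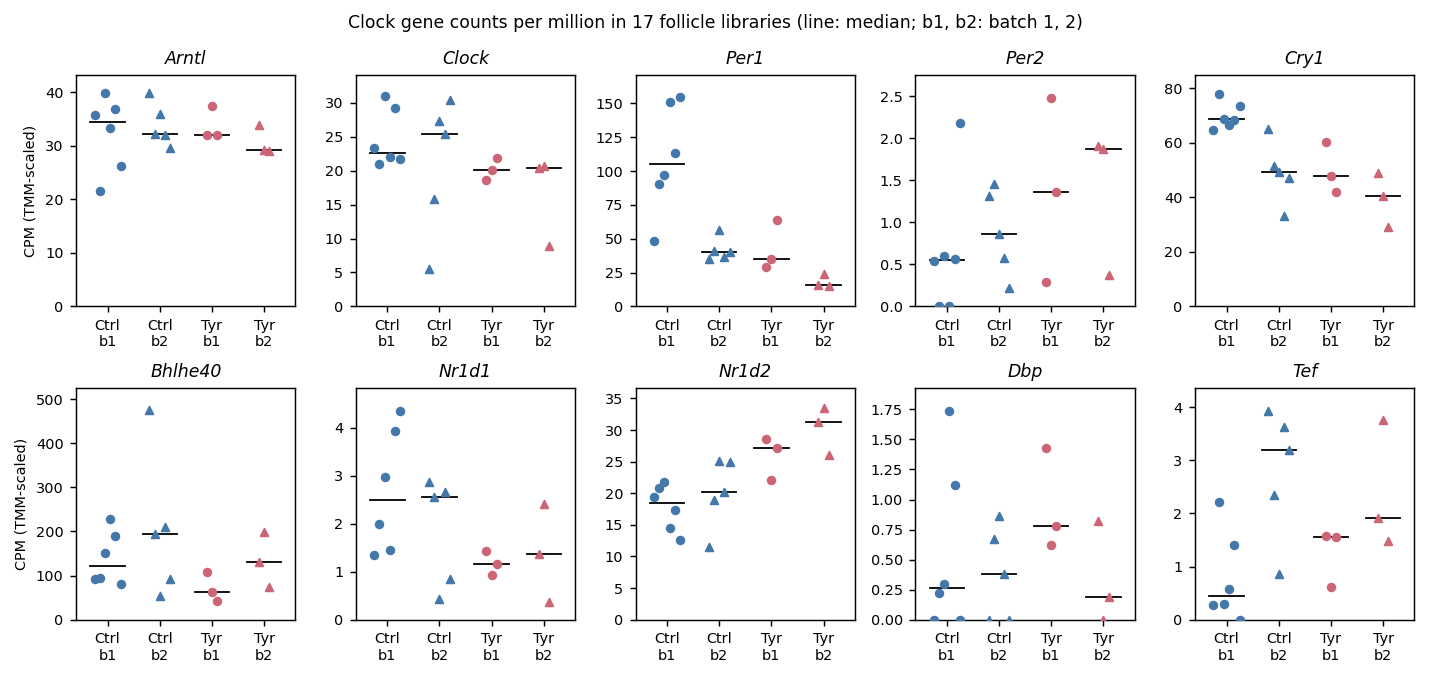
CPM of the 10 clock genes in the 17 libraries, split by group (Ctrl, Control; Tyr, Tyrphostin) and batch (b1 circles, b2 triangles), with a line at each median. Per1 is lower in the Tyrphostin libraries of both batches and lower in batch 2 than in batch 1, and Nr1d2 is higher in the Tyrphostin libraries of both batches.

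The treatment difference was then fitted within each batch alone. In batch 1, 1 of 7 members tested passed, beside 6.73% of 9423 genes: Per1 was lower by a log2 difference of -1.35 ± 0.34 (SE; edgeR adjusted p = 0.0238). That call was lost without Tyrphostin 1 (edgeR adjusted p = 0.0984), without Tyrphostin 2 (0.123) and with total-count scaling (0.0615). In batch 2, 0 of 8 members passed in edgeR, beside 0.621% of 9830 genes. An unadjusted p under 0.05 was reached by 2 of the 8, beside 10.7% of all genes. DESeq2 called 1 there (Per1) and limma-voom 0. Per1 had a log2 difference of -1.21 ± 0.26 in batch 2 (SE; edgeR adjusted p = 0.0646), and passed at 0.0179 when Control 7 was left out. Nr1d2 gave 0.55 in batch 1 (edgeR adjusted p = 0.181) and 0.59 in batch 2 (edgeR adjusted p = 0.457). The other members tested did not pass in either batch. Arntl was at 0.07 in batch 1 and -0.14 in batch 2, Clock at -0.29 and -0.33, and Cry1 at -0.48 and -0.31 on the log2 scale. Bhlhe40 was at -0.97 and -0.60 and Nr1d1 at -1.11 and -0.56. Their edgeR adjusted p-values were 0.136 or more. In batch 1 Nr1d1 met the count filter by Control libraries, at up to 4.36 CPM beside 1.43 CPM at most in Tyrphostin libraries. It stayed in the test in 6 of the 9 fits with 1 library left out, so its batch 1 value is no separate support. Tef entered the filtered test in batch 2 only, at -0.30 (edgeR adjusted p = 0.910). Without the filter Per2 was at 1.37 in batch 1 and 0.61 in batch 2, and Dbp and Tef at 0.76 and 0.59 in batch 1, none past the test.

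A test of the difference between the batch effects called 0 of 7 members in edgeR, beside 0% of 9603 genes. It gave 342 genes and 0 members at an unadjusted p under 0.05, and DESeq2 and limma-voom also called 0 genes. For Per1 the effect in batch 2 minus that in batch 1 was 0.15 (95% interval -0.77 to 1.07), and for Nr1d2 it was 0.05 (95% interval -0.67 to 0.77). The other 5 members tested ran from -0.21 (Arntl) to 0.54 (Nr1d1), and unfiltered values were -0.77 for Per2, -0.76 for Dbp and -0.86 for Tef. The intervals were wide, and the test does not show that the batches respond alike.

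Markers were read beside these values. Of the 5 granulosa markers tested, Inha and Inhba had log2 differences of -0.05 and -0.07 between Tyrphostin and Control libraries, and only Nr5a2, a nuclear receptor gene of granulosa cells, passed, with a log2 difference of 2.18 (edgeR adjusted p = 8.38e-09), and it passed within each batch too. Amhr2, the receptor gene for anti-Mullerian hormone, was at 0.49 (edgeR adjusted p = 0.415). Fst, which encodes follistatin, was at 1.05 (edgeR adjusted p = 0.598), with 2.54 in batch 1 and -1.46 in batch 2, neither past the test. Of 7 theca and stroma markers 0 passed in edgeR's test, with 0 at an unadjusted p under 0.05. Within batches Col1a1, a collagen gene, was lower in Tyrphostin libraries of batch 1 with a log2 difference of -1.20 (edgeR adjusted p = 0.0270) and stood at 1.11 in batch 2 (edgeR adjusted p = 0.443). The difference between these effects was 2.31, with an unadjusted p of 0.00225 and an edgeR adjusted p of 0.999723. Col3a1, Dcn, Lum, Acta2 and Ptch1 also had negative estimates in batch 1 and positive ones in batch 2. Cyp17a1 had positive ones in both. None of these passed within a batch, though Cyp17a1, Col3a1, Dcn and Lum had an unadjusted edgeR p under 0.05 in batch 1. Of 6 oocyte markers 0 passed in edgeR over both batches, with 1 at an unadjusted p under 0.05 (Zp2, a zona pellucida gene, at 1.37 with an adjusted p of 0.0908). The part of these markers in the clock gene results was not tested.

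**Figure D3:**
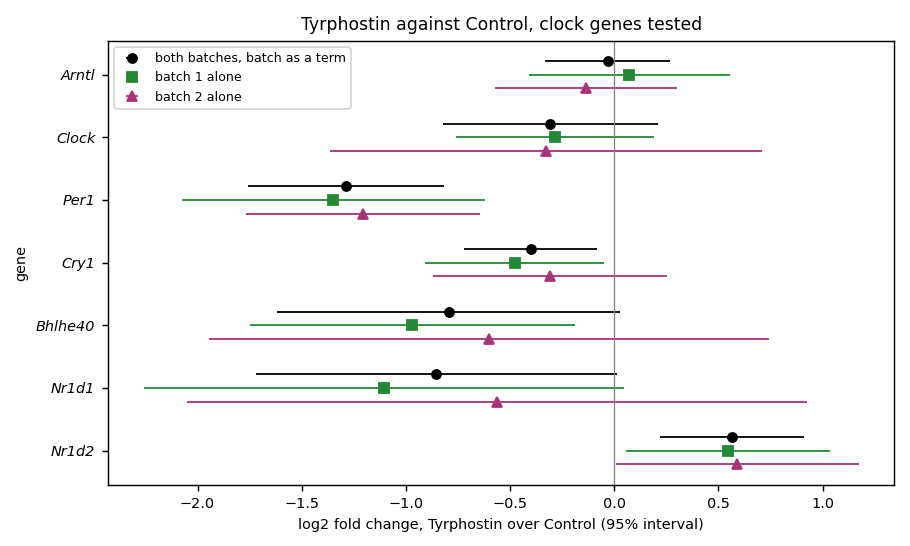
Log2 fold change of Tyrphostin over Control for the 7 clock genes tested, with 95% intervals, fitted over both batches with batch as a term (black) and within batch 1 (green squares) or batch 2 (purple triangles). The Per1 intervals lie below 0 and the Nr1d2 intervals above 0 in all 3 fits, while the Arntl intervals span 0.

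The Control libraries of the batches were compared next, since any difference there is separate from the inhibitor. Among 7 members tested only Per1 differed, beside 11% of 9128 genes tested. Its level was lower in batch 2, with 41.9 CPM ± 8.62 (SD, n = 5) against 109 CPM ± 40.0 (SD, n = 6) in batch 1, and 4 of 5 batch 2 libraries were below the lowest of batch 1. The log2 difference was -1.37 ± 0.26 (SE; 95% interval -1.93 to -0.82; edgeR adjusted p = 0.00313), a level 2.59-fold lower. For comparison, Tyrphostin libraries of batch 1 averaged 42.6 CPM ± 18.3 (SD, n = 3). The treatment and batch comparisons share their Control libraries.

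The library names group the Control libraries into 5 sets, 2 in batch 1 and 3 in batch 2. In batch 1 Per1 was at 48.6, 90.8 and 97.4 CPM in the first set (Control 1 to 3). It was at 151, 113 and 155 CPM in the second (Control 4 to 6), so the sets did not overlap. The difference between these sets was not tested, and the fits above count each library singly. With counts summed by set, the Per1 batch difference was -1.27 (edgeR adjusted p = 0.0798) and no longer passed, and no other member did. Cry1 was at 49.1 CPM ± 11.3 (SD, n = 5) in batch 2 and 69.9 CPM ± 4.83 (SD, n = 6) in batch 1, and 4 of 5 batch 2 libraries were below all of batch 1. Its log2 difference of -0.50 ± 0.18 (SE) had an edgeR adjusted p of 0.0764, and of 0.0223 when Control 7 was left out. Arntl differed by 0.08 (95% interval -0.33 to 0.48) and Nr1d2 by 0.18 (95% interval -0.31 to 0.68) on the log2 scale, and neither passed. Clock at -0.23, Nr1d1 at -0.36 and Bhlhe40 at 0.56 did not pass either. The Bhlhe40 value was 0.0142 without Control 7, the library at 474 CPM, and the Nr1d1 value was -0.18 without Control 11. Without the filter Per2 was at 0.70 (edgeR adjusted p = 0.688) and Dbp at -0.57 (edgeR adjusted p = 0.798).

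Tef, the D-box factor, stood higher in batch 2 by its few reads, with 2.79 CPM ± 1.23 (SD, n = 5) against 0.794 CPM ± 0.847 (SD, n = 6). In 4 of 5 batch 2 Control libraries it was above the highest of batch 1. Without the count filter the log2 difference was 1.69 ± 0.60 (SE; edgeR adjusted p = 0.0671). When Control 9 was left out, Tef entered the filtered test at 1.83 (edgeR adjusted p = 0.0465). Control 9 held 2 Tef reads, while Control 7, 8, 10 and 11 held 15, 21, 19 and 15. Batch 1 Control libraries held 0 to 10. Tef thus met the filter by the batch where it was high, once the lowest library there was dropped. That p-value is therefore no separate support. Theca and stroma markers differed between batches, but not all in the same direction. Their 7 genes summed to 238 to 667 CPM in Control libraries of batch 1 and 401 to 1990 CPM in batch 2, and to 240 to 391 and 726 to 2701 CPM in Tyrphostin libraries. Dcn, a matrix proteoglycan gene, was higher in batch 2 by 2.21 on the log2 scale (edgeR adjusted p = 0.00920) and Lum, another, by 1.32 (0.0280), while Acta2, smooth muscle actin, was lower by a log2 difference of -1.39 (0.0364). The other 4 did not pass, with Cyp17a1 at 2.05, Col3a1 at 1.43, Col1a1 at -0.01 and Ptch1 at -0.56. None of the 7 was at 0 in any library. Oocyte markers summed to 13.4 to 43.0 CPM in Control libraries of batch 1 and 22.9 to 74.0 CPM in batch 2, where Figla had no count. All 6 oocyte markers tested had higher estimates in batch 2, and Zp3, a zona pellucida gene, passed at 1.52 (edgeR adjusted p = 0.0307). The single immune or endothelial marker tested, Cdh5, was at -1.72 (edgeR adjusted p = 0.0682). The part of these markers in the batch difference of Per1 was not tested.

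**Figure D4:**
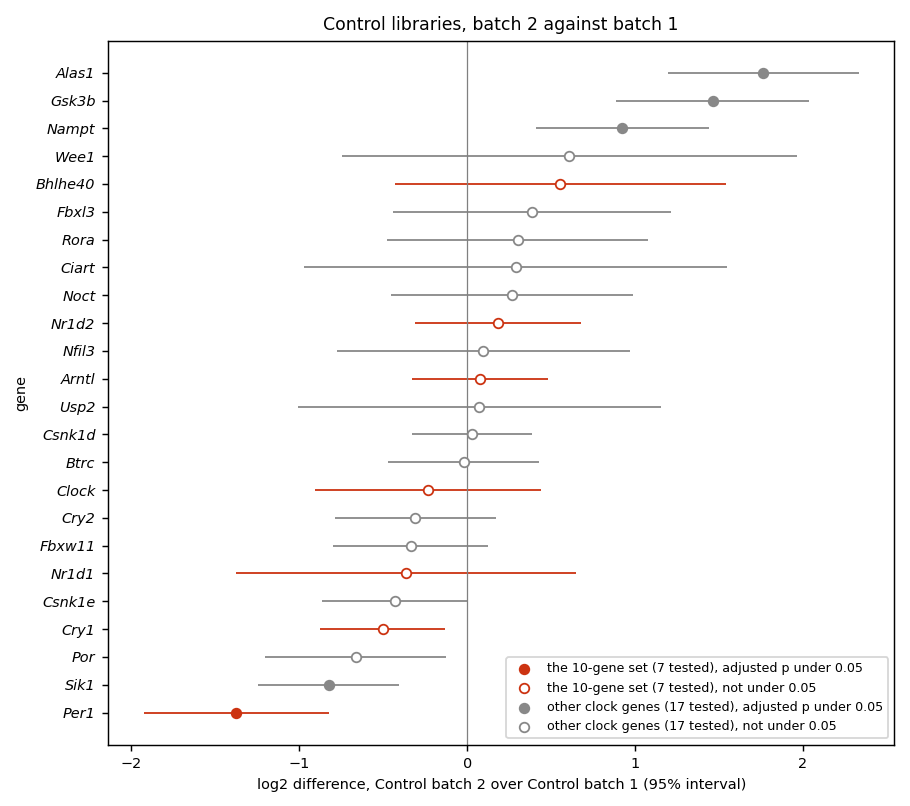
Log2 difference between Control libraries of batch 2 and batch 1, with 95% intervals, for the 7 members (red) and 17 other clock genes (grey) tested, with filled points where the edgeR adjusted p was under 0.05. Per1 lies lowest at -1.37, and Alas1, Gsk3b and Nampt lie highest.

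A wider list of 25 clock genes, holding further loop genes, kinases, ubiquitin ligase subunits and known outputs, was described in the same way. In the treatment comparison 17 were tested and 1 passed, beside 10.6% of all genes tested. An unadjusted p under 0.05 was reached by 4 of the 17, beside 23.7% of all genes. There were 5 positive and 12 negative log2 differences, with a median of -0.14 against 0.00 for all genes. The gene that passed, and rose, was Alas1, the first enzyme of heme synthesis and a known clock output. Control libraries averaged 95.7 CPM ± 78.7 (SD, n = 11), and Tyrphostin libraries averaged 320.1 CPM ± 253 (SD, n = 6). The log2 difference was 1.63 ± 0.23 (SE; edgeR adjusted p = 4.11e-05). Its levels depended on batch as well. In batch 1 the Control libraries ran from 38.4 to 55.9 CPM and the Tyrphostin libraries were at 140, 173 and 93.4 CPM. In batch 2 the Control libraries ran from 86.1 to 295 CPM and the Tyrphostin libraries were at 328, 411 and 775 CPM. In both batches all 3 Tyrphostin libraries were above every Control library of the batch, and 3 of 6 were above all 11. The share of all genes separated in this way was not counted. Alas1 shares 7.53% of its exonic length with the antisense gene 4930500F10Rik.

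Within batch 1, Alas1 (log2 difference 1.57; edgeR adjusted p = 0.000174) and Fbxw11, a ubiquitin ligase subunit that acts on PER proteins, were higher in Tyrphostin libraries, beside 6.73% of all genes called. The Fbxw11 call (1.09; edgeR adjusted p = 0.0404) rested on Tyrphostin 2, at 633 CPM beside 169 and 264 CPM in the other batch 1 Tyrphostin libraries. Without that library the difference was 0.39 (edgeR adjusted p = 0.511), and the call was also lost without Control 1, 2, 4, 5 or 6. In batch 2, 0 of 18 passed in edgeR, beside 0.621% of all genes, with 3 at an unadjusted p under 0.05 (10.7% of all genes), while DESeq2 called 1 (Alas1) and limma-voom 0. Cry2, the paralogue of Cry1, averaged 203 CPM ± 55.7 (SD, n = 11) over Control libraries and 183 CPM ± 51.3 (SD, n = 6) over Tyrphostin libraries (log2 difference -0.14; edgeR adjusted p = 0.713). Nfil3, a repressor at D-boxes, gave -0.70 (edgeR adjusted p = 0.160). Csnk1e, a kinase of the list, gave -0.41 (edgeR adjusted p = 0.102), and Fbxw11 over both batches gave 0.59 (edgeR adjusted p = 0.145). Ciart, a further repressor of the loop, gave -1.16 (edgeR adjusted p = 0.290). It had 0 to 68 reads per library, and none in 1 Control and 1 Tyrphostin library. Npas2, Arntl2, Per3, Bhlhe41 and Hlf were among those too low to be tested over both batches.

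Between Control batches 4 of the 17 listed genes tested passed, 3 higher and 1 lower in batch 2, beside 11% of all 9128 genes tested, with a median of 0.10 against 0.04 for all genes. Alas1 was higher by 1.76 on the log2 scale (edgeR adjusted p = 0.000703). Gsk3b, a kinase that acts on several clock proteins, was at 48.7 CPM ± 8.72 (SD, n = 6) in batch 1 and 133 CPM ± 58.7 (SD, n = 5) in batch 2, a log2 difference of 1.46 (edgeR adjusted p = 0.00284). Nampt, the rate-limiting enzyme of NAD salvage, was higher by 0.92 (edgeR adjusted p = 0.0221), and all 5 batch 2 libraries were above every batch 1 library. That call was lost without Control 2 (0.0582), Control 8 (0.0525) or Control 10 (0.0699). Sik1, a kinase induced by cyclic AMP, was lower, at 44.9 CPM ± 5.16 (SD, n = 5) against 79.9 CPM ± 22.6 (SD, n = 6), a log2 difference of -0.82 (edgeR adjusted p = 0.0140). All 5 of its batch 2 libraries were below every batch 1 library. Of all genes tested, 7.5% had no overlap between the Control batches in either direction. Like Per1, none of these 4 passed with Control counts summed by set, with edgeR adjusted p-values of 0.0754 for Alas1, 0.0991 for Gsk3b, 0.181 for Nampt and 0.138 for Sik1.

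Co-variation between members was examined over the 17 libraries for 6 textbook pairs, after the mean of each treatment and batch group had been removed from log2 CPM. Arntl and its target Nr1d1 gave Pearson r = 0.03 (permutation p = 0.905) and Spearman rho = 0.08 (permutation p = 0.783). Nr1d1 and Nr1d2 gave r = -0.33 (permutation p = 0.306) and rho = -0.34 (permutation p = 0.241), and r = -0.34 without the 2 libraries farthest from the Nr1d1 median. That coefficient was -0.17 without Control 7 and -0.07 with total-count scaling. Per1 and Per2 gave r = 0.22 (permutation p = 0.5005) and rho = 0.26 (permutation p = 0.412), and r = 0.32 without the 2 farthest. Arntl and Dbp gave r = 0.24 and rho = 0.17, Nr1d1 and Dbp r = -0.13 and rho = -0.10, and Dbp and Tef r = 0.03 and rho = 0.15. Their permutation p-values ran from 0.491 to 0.926 for r and from 0.577 to 0.741 for rho. Without the 2 libraries farthest from the median of the first gene, r was -0.10 for Arntl and Nr1d1, 0.29 for Arntl and Dbp, -0.01 for Nr1d1 and Dbp and -0.11 for Dbp and Tef. None of the 6 pairs passed, with a Benjamini-Hochberg adjusted p of 0.926 for r and 0.783 for rho in each. Per2, Nr1d1, Dbp and Tef enter with few reads, which limits what these coefficients can show.

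As a description, the genes whose residual log2 CPM was most like that of the members that changed were listed over the 17 libraries, which share depth and library preparation. For Per1 they were Trim75 (r = 0.86) and Slc9a8 (r = 0.85). For Nr1d2 they were Samd8 (r = 0.93) and Zfp738 (r = 0.92). No member of the clock list was among these 4.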

How the data were processed

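Counts per gene symbol were deposited by the authors as 1 table of whole numbers for 17 libraries. Reads came from Smart-Seq2 libraries of RNA isolated on RNA-SPRI beads, per the labels' protocols. Smart-Seq2 marks neither strand nor single molecules. GRCm38, STAR and HTSeq are named per the submitters' processing notes, and their settings are not given in the sources used here. Of 25198 genes, 3576 had no count. Fits covered the whole table: edgeR 4.0.16 in R 4.3.3 with filterByExpr, TMM scaling and the robust quasi-likelihood F test, Benjamini-Hochberg adjustment over all genes tested and a threshold of 0.05. SEs were computed from the F statistic. The Control batch comparison used batch as the filter's group. CPM used TMM-scaled totals, and log2 CPM a prior count of 2. Permutations (100000) were drawn within treatment and batch groups. Floors of 3 counts cover counting error only. Alternatives were DESeq2 1.42.0, RLE scaling, total-count scaling, voom weights in limma 3.58.1, other filters, no batch term, Control counts summed by set, a replicate block, and each library left out. Code was tested on simulated data. The members, gene lists and markers were chosen with earlier results of these data known. Members were named in each comparison, 3 of them by unfiltered estimates where the filter removed them, as were listed genes that passed, and 2 most similar genes for each member that passed. Nfil3, Ciart, Cry2, Csnk1e and the Fbxw11 value over both batches were added after their values were seen. Exon lengths and overlaps came from GENCODE M21 and promoters from RefSeq.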

Additional observations from a re-analysis of the deposited data

Results flagged for a closer look

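The 10 members over 3 sets of libraries gave 30 groups, each searched for a library apart from the rest by the gap to its nearest neighbour as a share of the group's range. In 3 groups there was one, where chance gives about 1 in 20, or 1.5 of 30. That rate assumes normally distributed values, which may not hold for CPM from few reads. The Tyrphostin libraries of both batches formed 1 set, while Control libraries were split by batch. Clock in Tyrphostin 6 was at 8.92 CPM, beside 18.6 to 21.9 CPM in the other Tyrphostin libraries. Per1 in Control 9 was at 56.7 CPM, beside 35.0 to 41.0 CPM in the other Control libraries of batch 2. Per2 in Control 6 was at 2.18 CPM, beside 0 to 0.596 CPM in the other Control libraries of batch 1. Control 6 has the fewest counts, and its Per2 value rests on 4 reads.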

How the results depend on the processing

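Of 296 values of named clock genes recomputed under alternatives, 275 kept their direction and side of the threshold, 7 changed sign and 14 crossed the threshold. With 1 library left out, 475 of 518 kept both, 22 changed sign and 21 crossed. The causes were not tested. In the treatment comparison 1018 genes passed, 619 without the batch term, 624 with the replicate block and 708 to 1314 with 1 library left out. Members passing, 2 as reported, were 1 without the filter, without the batch term, with Control summed by set or with the replicate block, and 1 to 3 with 1 library left out. The lost call was Nr1d2 (edgeR adjusted p 0.0557, 0.0512, 0.0800 and 0.494). The replicate block used Control 1 to 6 and Tyrphostin 1 to 6. Same-numbered libraries correlated at 0.0312 to 0.323, over 0.1 in 2 of 6 pairs. The labels do not say whether they were paired, and these correlations cannot settle it. Pairs 4 to 6 cross the batches, so with batch in the fit only pairs 1 to 3, all of batch 1, inform the blocked treatment effect. It was 0.32 for Nr1d2 beside 0.57. Per1 ran from -1.37 to -0.91 over alternatives, with adjusted p-values up to 0.0446. Arntl, at -0.03, was 0.12 with total-count scaling, 0.0177 without the filter, 0.0181 with at least 10 counts in every library, 0.10 with the replicate block and -0.0846 to 0.0044 with 1 library left out. In batch 1, 394 to 687 genes and 0 to 1 members passed with 1 library left out, 0 members with total-count scaling and 2 without the filter (Bhlhe40 added), and Arntl ran from -0.0268 to 0.14. In batch 2, 61 genes passed, 286 with DESeq2, 222 without the filter and 11 to 221 with 1 library left out (11 without Tyrphostin 6, 221 without Control 7). Members passing were 1 with DESeq2, 1 without the filter and 0 to 1 with 1 library left out. For the difference between batch effects, 79 genes passed without the filter. There Nr1d2 was -0.00063 with total-count scaling, -0.0299 without the filter and -0.0904 to 0.15 with 1 library left out, and Clock was 0.0861 with limma-voom and -0.27 to 0.27 with 1 library left out. Per1 ran from -0.0602 to 0.56 and Bhlhe40 from -0.00925 to 0.93. Between Control batches 1004 genes passed, 101 with Control summed by set and 660 to 1063 with 1 library left out, with 0 members by set and 1 to 2 with 1 library left out. There Arntl ran from -0.0212 to 0.15 and Clock from -0.42 to 0.00775. Pair coefficients with 1 library left out ran from -0.0658 to 0.15 for Arntl and Nr1d1, -0.26 to 0.0413 for Nr1d1 and Dbp and -0.17 to 0.21 for Dbp and Tef. Total-count scaling moved the median of all genes from 0.00 to 0.15 in the treatment comparison (715 higher and 396 lower, beside 418 and 600) and from 0.04 to 0.23 between Control batches (907 and 281, beside 502 and 502). With it Per1 was -1.12 and -1.21 in these comparisons and Nr1d2 0.71 under treatment, and all 3 stayed on the same side of the threshold. Depth limits Per2, Dbp, Tef and Nr1d1, which had at most 23 reads per library.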
